A study of Mus musculus with 60 samples.

Results

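The genes described are those of the UDP-glucuronosyltransferase family together with Ugdh. Most enzymes of the family attach glucuronic acid to compounds such as drugs, hormones and bilirubin, and Ugdh makes the cosubstrate for this. They were taken by gene symbol from the deposited table: Ugt1a1, Ugt1a7c, Ugt2b1, Ugt2b5, Ugt2b34, Ugt2b35, Ugt2b36, Ugt3a1 and Ugdh. All 9 had a row among the 21115 features, and no filter on low values was applied.

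Liver RNA of 60 mice was measured on expression arrays, 1 animal per array. The mice were transgenic C57BL/6J males, 12 to 15 weeks old by their labels, of the genotypes rWT, DEL or INS, which name variants of the aryl hydrocarbon receptor (AHR). They received 2,3,7,8-tetrachlorodibenzo-p-dioxin (TCDD, a persistent AHR ligand) in corn oil by a single oral gavage at 125, 250, 500 or 1000 µg/kg, or the corn oil alone, and livers were taken after 96 hours. Among rWT mice 5 had corn oil and the rising doses were given to 3, 3, 4 and 2. Among DEL mice 5 had corn oil and each dose was given to 4; among INS mice 5 had corn oil and the rising doses went to 4, 4, 4 and 5. As background from outside the labels, these names are those of the receptor of the rat: the wild-type form and the deletion and insertion splice forms of the TCDD-resistant Han/Wistar rat. The promoter of the transgene, the number of founders per line and the state of the endogenous Ahr gene were not given in the sources.

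Glucuronidation takes place in the endoplasmic reticulum of the hepatocyte. Ugdh oxidises UDP-glucose to UDP-glucuronic acid in the cytosol, and Slc35d1 carries the product into the endoplasmic reticulum. The Ugt enzymes that use it transfer the sugar to lipophilic compounds, which are then exported into bile or blood. The Ugt1a genes each have their own promoter and their own first exon and share their last exons, so that the enzymes differ in the part that binds the substrate. The Ugt2b genes are separate genes in a cluster and act on steroids, bile acids and drugs. Some Ugt1a genes and Ugdh are known in rodents and humans as targets of AHR and of NRF2, the factor encoded by Nfe2l2.

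In the RefSeq annotation (GRCm38.p6), Ugt1a1 and Ugt1a7c lie in the Ugt1a cluster on chromosome 1, the Ugt2b genes lie in a cluster on chromosome 5, Ugdh lies elsewhere on chromosome 5, and Ugt3a1 lies beside Ugt3a2 on chromosome 15. In that annotation 7 of the 9 Ugt1a genes end at the same base, so probes placed in the shared last exons cannot tell them apart. The probe content of a feature was not given in the sources, and hybridisation of a probe to the transcript of a similar Ugt gene was not tested. None of the 190 pairs among the 20 measured Ugt features had identical values on all arrays, and none stayed within 0.1 of each other on all arrays.

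The 250 bases before the RefSeq start site (GRCm38.p6) are shown for 4 of the 9 genes: Ugdh and Ugt1a7c, which rose under TCDD, Ugt3a1, which fell in rWT and DEL, and Ugt1a1, which was not called. Capitals mark the 2 motifs searched on both strands: GCGTG (the core of the AHR binding site) and TGACNNNGC (the core of the antioxidant response element bound by NRF2).
Ugt1a7c: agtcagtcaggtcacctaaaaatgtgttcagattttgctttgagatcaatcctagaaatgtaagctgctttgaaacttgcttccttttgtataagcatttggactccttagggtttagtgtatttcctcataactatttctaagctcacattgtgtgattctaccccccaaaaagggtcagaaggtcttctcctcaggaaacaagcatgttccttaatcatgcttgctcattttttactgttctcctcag
Ugt1a1: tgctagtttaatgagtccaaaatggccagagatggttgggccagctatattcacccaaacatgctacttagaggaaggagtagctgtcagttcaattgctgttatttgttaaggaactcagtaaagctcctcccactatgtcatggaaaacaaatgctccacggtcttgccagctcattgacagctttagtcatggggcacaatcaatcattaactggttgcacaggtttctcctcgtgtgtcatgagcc
Ugt3a1: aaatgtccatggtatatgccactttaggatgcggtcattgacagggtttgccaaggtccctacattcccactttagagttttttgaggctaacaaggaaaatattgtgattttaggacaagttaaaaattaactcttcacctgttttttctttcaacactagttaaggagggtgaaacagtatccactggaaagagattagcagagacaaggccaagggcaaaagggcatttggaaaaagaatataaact
Ugdh: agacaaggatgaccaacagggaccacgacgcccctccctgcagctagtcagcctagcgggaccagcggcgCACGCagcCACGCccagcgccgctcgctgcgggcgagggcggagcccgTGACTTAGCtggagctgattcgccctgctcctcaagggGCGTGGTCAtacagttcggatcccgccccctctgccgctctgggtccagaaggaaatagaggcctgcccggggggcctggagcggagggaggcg

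These windows are chr1:88094751-88095000 (plus strand) for Ugt1a7c, chr1:88211709-88211958 (plus) for Ugt1a1, chr15:9279579-9279828 (plus) for Ugt3a1 and chr5:65435843-65436092 (minus) for Ugdh, each printed 5′ to 3′ on the strand of its gene. The Ugdh window held 3 copies of GCGTG and 2 of TGACNNNGC, and a copy of each, on opposite strands, overlap in the run of capitals nearest the start site. The windows of Ugt1a7c, Ugt1a1, Ugt3a1 and the other 5 genes held neither motif. Of 32841 RefSeq promoters searched over the same length, 28.2% held GCGTG and 10.2% held TGACNNNGC. A match describes these letters and does not show that a factor binds there.

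Some features of the whole data set touch the results. The array medians followed the line (rWT 5.65 to 6.01, DEL 5.81 to 6.25, INS 5.22 to 5.38), so levels set across lines carry this offset, whereas TCDD was compared with corn oil within a line. Of the 17 rWT arrays, 4 (corn oil replicates 3, 4 and 5 and replicate 4 at 500 µg/kg) went against the label male: Xist, the RNA of the inactive X chromosome, read 10.7 to 11.4 on them and 2.41 to 3.44 on the other 56 arrays, and the Y-linked Eif2s3y read 2.73 to 3.37 against 8.15 to 9.72. The averaged effects of the 9 genes in rWT are therefore given with and without these 4 arrays. All 10 hepatocyte markers were high on every array (lowest single value 9.78, for a table whose array medians lie near 6), and the AHR target genes Cyp1a1, Cyp1a2, Cyp1b1, Tiparp, Ahrr and Nqo1 rose in all 3 lines (6 of 6). In bulk liver, fewer cells of a type and less RNA per cell cannot be told apart.

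TCDD moved these genes in opposite directions. Averaged over the doses, Ugt1a7c and Ugdh rose in all 3 lines, Ugt2b35 rose in rWT, and Ugt3a1, Ugt2b1, Ugt2b36 and Ugt2b5 fell in rWT and DEL. Ugt1a1, which encodes the enzyme that conjugates bilirubin, and Ugt2b34 were not called in any line on the deposited scale. With each array centred on its median, Ugt2b34 was called lower in rWT (-0.32, adjusted p = 0.0299, limma). In rWT 7 of the 9 genes were called (3 higher and 4 lower), in a contrast in which 40.7% of all features were called (20.3% higher and 20.4% lower). Leaving out the 4 arrays, 6 of the 9 were called in rWT (2 higher and 4 lower), where 36.1% of all features were. In DEL 6 of the 9 were called (2 higher and 4 lower) against 34.3% of all features (16.7% higher and 17.6% lower). In INS 2 of the 9 were called, both higher, against 0.568% of all features (0.431% higher and 0.137% lower). A feature was called at an adjusted p under 0.05 in limma's moderated test, with Benjamini-Hochberg adjustment over all 21115 features. The median log2 difference of the 9 genes was -0.10 in rWT, 0.02 in DEL and -0.00 in INS, beside -0.07, -0.05 and -0.01 over all features.

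**Figure D1:**
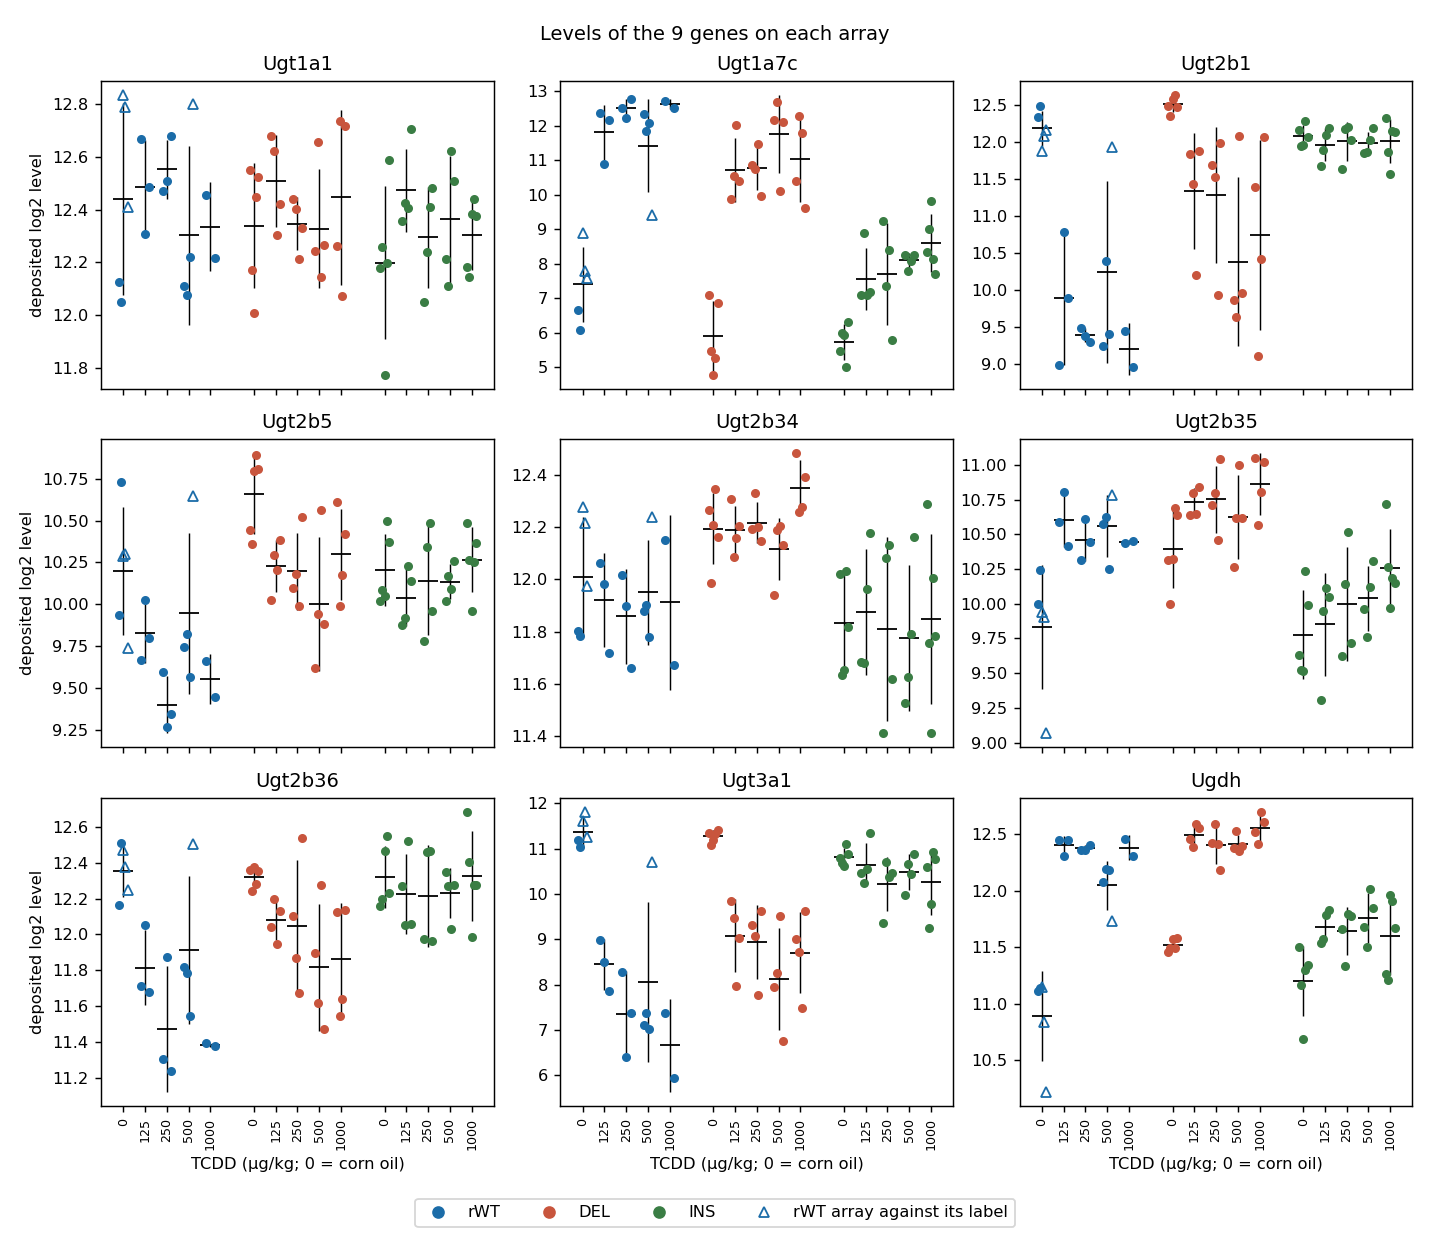
Deposited log2 level (vertical axes) of each of the 9 genes on the 60 arrays, by line and TCDD dose in µg/kg (horizontal axes; 0 is corn oil). Points are arrays, open triangles are the 4 rWT arrays that go against their label, and black marks are group means with SD; vertical axes differ between panels and do not start at 0. Ugt1a7c and Ugdh stand higher, and Ugt3a1 lower, on every treated rWT and DEL array than on the corn oil arrays of the same line.

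Ugt1a7c gave the largest differences among the 9 genes. Its enzyme belongs to the phenol-conjugating group of the family, and in the rat UGT1A7 is a known dioxin-inducible form. In rWT its level was 6.67, 6.08, 8.91, 7.80 and 7.59 on the corn oil arrays. It was 12.38, 10.90 and 12.16 at 125 µg/kg, 12.52, 12.24 and 12.77 at 250, 12.35, 11.86, 12.07 and 9.42 at 500, and 12.73 and 12.52 at 1000. All 12 treated rWT arrays lay above the highest corn oil array, and the lowest of them, 9.42, was the treated array that goes against its label. The 3 corn oil arrays against their label were the 3 highest of the 5.

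In DEL, Ugt1a7c was at 7.11, 5.47, 4.78, 5.29 and 6.87 on the corn oil arrays. It was at 9.87, 10.55, 12.04 and 10.39 at 125 µg/kg, 10.86, 10.76, 11.47 and 9.97 at 250, 12.16, 12.68, 10.12 and 12.10 at 500, and 10.40, 12.27, 11.80 and 9.62 at 1000. Every treated DEL array was above every corn oil array, and high and low treated arrays occurred at each dose. In INS it was at 5.46, 5.99, 5.95, 5.01 and 6.32 on the corn oil arrays. It was at 7.09, 8.90, 7.09 and 7.19 at 125 µg/kg, 9.26, 7.36, 8.41 and 5.80 at 250, 8.26, 7.79, 8.09 and 8.26 at 500, and 8.35, 9.01, 9.83, 8.13 and 7.70 at 1000. In INS 16 of the 17 treated arrays lay above the highest corn oil array, and the exception was the lowest array at 250 µg/kg.

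Averaged over doses, Ugt1a7c rose by 4.68 ± 0.49 (log2 difference ± SE) in rWT, or 25.7-fold (adjusted p = 6.72e-11, limma). In DEL it rose by 5.16 ± 0.47, or 35.8-fold (adjusted p = 2.99e-12). In INS it rose by 2.25 ± 0.47, or 4.75-fold (adjusted p = 0.00575). Without the 4 arrays against their label the rWT rise was 5.88 ± 0.64. The rise was smaller in INS than in rWT (difference -2.43 ± 0.68, 95% interval -3.80 to -1.06, adjusted p = 0.00670) and smaller in INS than in DEL (-2.91 ± 0.66, interval -4.25 to -1.58, adjusted p = 0.00141). DEL and rWT differed by 0.48 ± 0.68 (DEL minus rWT, interval -0.89 to 1.85, adjusted p = 0.852), a difference of -0.72 without the 4 arrays.

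Ugdh encodes UDP-glucose dehydrogenase, the enzyme that makes UDP-glucuronic acid, the sugar donor of glucuronidation. In rWT it was at 11.12, 11.14, 11.15, 10.84 and 10.22 on the corn oil arrays. Under TCDD it was at 12.45, 12.31 and 12.45 at 125 µg/kg, 12.37, 12.36 and 12.41 at 250, 12.08, 12.20, 12.19 and 11.73 at 500, and 12.46 and 12.31 at 1000. The treated rWT arrays lay in a narrow band above all corn oil arrays, and the lowest was again the treated array against its label. In DEL it was at 11.46, 11.49, 11.58, 11.49 and 11.58 on the corn oil arrays, and at 12.46, 12.38, 12.59 and 12.56, then 12.43, 12.59, 12.42 and 12.19, then 12.38, 12.53, 12.36 and 12.40, and last 12.52, 12.42, 12.70 and 12.61 at the 4 rising doses. The DEL groups did not overlap with corn oil at any dose. In INS it was at 11.50, 11.17, 10.69, 11.30 and 11.34 on the corn oil arrays, and at 11.54, 11.57, 11.78 and 11.83, then 11.66, 11.33, 11.80 and 11.78, then 11.68, 11.50, 12.02 and 11.85, and last 11.27, 11.21, 11.96, 11.91 and 11.67 at the rising doses. The INS groups overlapped, with 14 of the 17 treated arrays above the highest corn oil array.

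Averaged over doses, Ugdh rose by 1.41 ± 0.12 in rWT, or 2.66-fold (adjusted p = 1.48e-13, limma), and by 0.95 ± 0.11 in DEL, or 1.93-fold (adjusted p = 2.29e-09). In INS it rose by 0.47 ± 0.11, or 1.39-fold (adjusted p = 0.0255). Its call in INS was lost when each array was centred on its median (adjusted p = 0.0856), when INS was fitted on its own (0.139), and when INS corn oil replicate 2 or replicate 3 was left out (rises of 0.46 and 0.34). The rWT rise was 1.20 without the 4 arrays. The rise was smaller in INS than in rWT (-0.94 ± 0.16, adjusted p = 2.22e-05). It was also smaller in INS than in DEL (-0.48 ± 0.16, adjusted p = 0.0346), a call that ended when arrays were centred on their medians (-0.25, adjusted p = 0.258) and when any of 6 single corn oil arrays of DEL (replicates 1, 2 and 4) or INS (replicates 1, 4 and 5) was left out.

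Ugt3a1 fell most. The human enzyme of the same name, UGT3A1, uses UDP-N-acetylglucosamine in place of UDP-glucuronic acid. In rWT it was at 11.18, 11.04, 11.60, 11.82 and 11.25 on the corn oil arrays, and under TCDD at 8.98, 8.50 and 7.86 at 125 µg/kg, 8.28, 6.41 and 7.38 at 250, 7.12, 7.38, 7.03 and 10.71 at 500, and 7.38 and 5.94 at 1000. Every treated rWT array lay below every corn oil array, and the array at 10.71 was the treated array against its label. In DEL it was at 11.35, 11.09, 11.18, 11.33 and 11.42 on the corn oil arrays, and at 9.84, 9.48, 7.97 and 9.03, then 9.32, 9.08, 7.77 and 9.62, then 7.96, 8.26, 9.51 and 6.76, and last 9.0, 8.71, 7.48 and 9.63 at the rising doses. The DEL groups did not overlap either. In INS it was at 10.81, 10.69, 10.62, 11.11 and 10.89 on the corn oil arrays, and at 10.47, 10.24, 10.54 and 11.34, then 9.35, 10.72, 10.37 and 10.46, then 9.98, 10.67, 10.43 and 10.89, and last 10.59, 9.26, 9.77, 10.92 and 10.77 at the rising doses. The INS groups overlapped, with 11 of 17 treated arrays below the lowest corn oil array.

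Averaged over doses, Ugt3a1 fell by 3.75 ± 0.41 on the log2 scale in rWT (13.4-fold lower, adjusted p = 1.57e-10, limma) and by 2.56 ± 0.39 in DEL (5.89-fold lower, adjusted p = 5.86e-07). In INS the difference was -0.42 ± 0.39 (adjusted p = 0.975). The difference in INS was less negative than in rWT by 3.33 ± 0.56 (adjusted p = 1.38e-05) and less negative than in DEL by 2.14 ± 0.55 (adjusted p = 0.00462). The rWT difference was -3.70 without the 4 arrays.

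Ugt2b1, an abundant Ugt2b gene of the liver, fell in the same lines. In rWT it was at 12.34, 12.49, 11.88, 12.08 and 12.16 on the corn oil arrays, and under TCDD at 8.98, 10.78 and 9.89 at 125 µg/kg, 9.49, 9.38 and 9.30 at 250, 9.24, 10.39, 9.41 and 11.94 at 500, and 9.44 and 8.95 at 1000. Of the 12 treated rWT arrays 11 lay below all corn oil arrays, and the array at 11.94 was the one against its label. In DEL it was at 12.50, 12.36, 12.59, 12.64 and 12.48 on the corn oil arrays, and at 11.84, 11.44, 10.20 and 11.88, then 11.69, 11.52, 9.93 and 11.98, then 9.86, 9.64, 12.08 and 9.96, and last 11.40, 9.11, 10.41 and 12.08 at the rising doses. All 16 treated DEL arrays lay below all corn oil arrays, and each dose had arrays on both sides of the gap between 10.41 and 11.40. In INS all 22 arrays lay between 11.57 and 12.33.

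Averaged over doses, Ugt2b1 fell by 2.51 ± 0.35 in rWT (5.71-fold lower, adjusted p = 7.08e-08, limma) and by 1.57 ± 0.34 in DEL (2.98-fold lower, adjusted p = 0.000174), and the difference in INS, -0.09 ± 0.33, was not called. The difference in INS was less negative than in rWT by 2.42 ± 0.49 (adjusted p = 0.000169) and less negative than in DEL by 1.48 ± 0.47 (adjusted p = 0.0265). The rWT difference was -2.88 without the 4 arrays.

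The other Ugt2b genes moved less. Ugt2b36 fell by 0.71 ± 0.13 in rWT (adjusted p = 2.58e-05, limma) and by 0.37 ± 0.13 in DEL (adjusted p = 0.0202), with 11 of 12 and 14 of 16 treated arrays below all corn oil arrays of the line. Ugt2b5 fell by 0.52 ± 0.14 in rWT (adjusted p = 0.00336) and by 0.48 ± 0.14 in DEL (adjusted p = 0.00492), and its groups overlapped in both lines. Leaving out the 4 arrays gave -0.74 for Ugt2b36 and -0.71 for Ugt2b5 in rWT, both called. With the Xist pattern as a covariate Ugt2b5 lost its call in rWT (-0.40, adjusted p = 0.0914). In INS the differences were -0.07 for Ugt2b36 and -0.06 for Ugt2b5, and neither was called. Ugt2b36 was the fifth gene whose effect differed between INS and rWT (0.64 ± 0.19, adjusted p = 0.00946), a call lost with the Xist covariate (0.46, adjusted p = 0.143).

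Ugt2b35 went the other way from its neighbours in the cluster. In rWT it rose by 0.69 ± 0.15 (adjusted p = 0.000278, limma), from 9.07 to 10.24 on the corn oil arrays to 10.25 to 10.81 on the treated arrays, with no overlap. Without the 4 arrays against their label the rise was 0.38 and the call was lost (adjusted p = 0.146). The lowest rWT corn oil array, at 9.07, was 1 of these 4. In DEL the difference was 0.35 ± 0.15 (adjusted p = 0.0608), and in INS 0.26 ± 0.15 (adjusted p = 0.760). In DEL it passed under 6 of 9 alternatives, not counting the omission of single arrays.

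Ugt1a1 had means of 12.44 ± 0.36 (SD, n = 5) in rWT, 12.34 ± 0.24 (n = 5) in DEL and 12.20 ± 0.29 (n = 5) in INS under corn oil, and group means of 12.30 to 12.55 under TCDD. Its averaged differences were -0.02 for rWT (95% interval -0.28 to 0.24), 0.07 for DEL (-0.18 to 0.31) and 0.16 for INS (-0.08 to 0.41). Ugt2b34 gave -0.10 (-0.34 to 0.13), 0.02 (-0.20 to 0.25) and -0.00 (-0.23 to 0.22). Without the 4 arrays the rWT difference was 0.29 for Ugt1a1 (adjusted p = 0.150) and 0.09 for Ugt2b34 (adjusted p = 0.682).

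**Figure D2:**
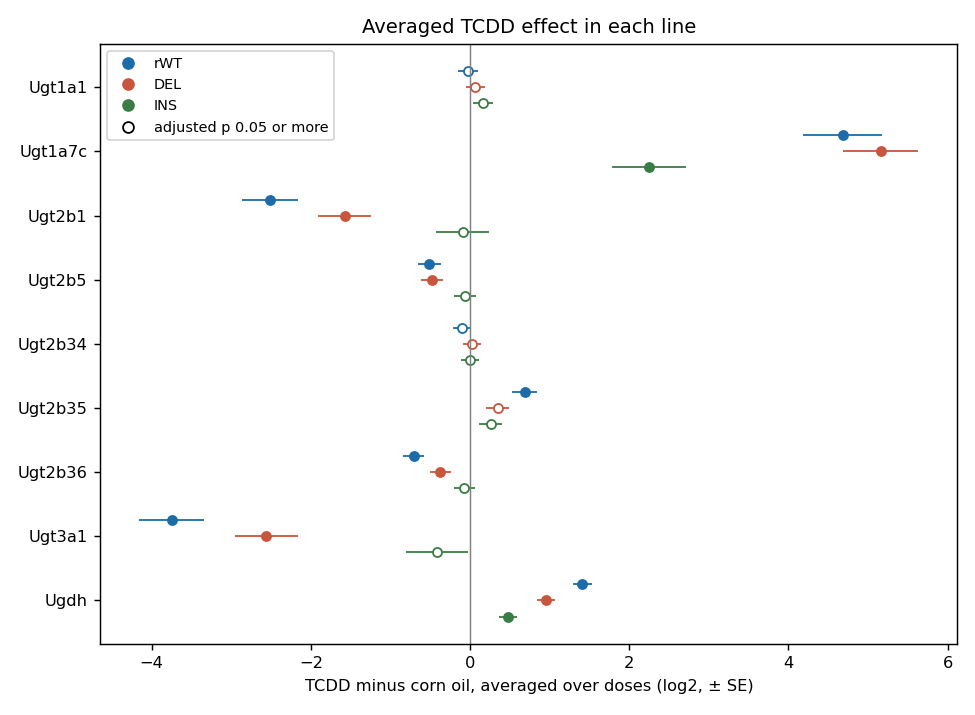
Log2 difference of TCDD from corn oil averaged over the doses (horizontal axis; bars are ± SE of the limma fit) for the 9 genes in rWT, DEL and INS. Filled points passed the adjusted p of 0.05 and open points did not; rWT and DEL reach beyond 4.6 for Ugt1a7c, where INS is at 2.25.

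At single doses 26 of the 36 pairs of gene and dose were called in rWT (12 higher, 14 lower), 18 of 36 in DEL (8 higher, 10 lower) and 1 of 36 in INS. In rWT 22 of 36 were called without the 4 arrays. Over all features 23.9%, 30.9%, 23.4% and 28.5% were called at the rising doses in rWT, 17.2%, 22.5%, 27.5% and 27.0% in DEL, and 0.0805%, 0.142%, 0.232% and 1.02% in INS. Ugt1a7c, Ugdh and Ugt3a1 were called at every dose in rWT and in DEL, and Ugt2b1 at every dose in rWT and at 250, 500 and 1000 µg/kg in DEL. The pair called in INS was Ugt1a7c at 1000 µg/kg (2.86 ± 0.58, adjusted p = 0.00417, limma). The doses of a line share its corn oil arrays, so these counts are not independent.

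**Figure D3:**
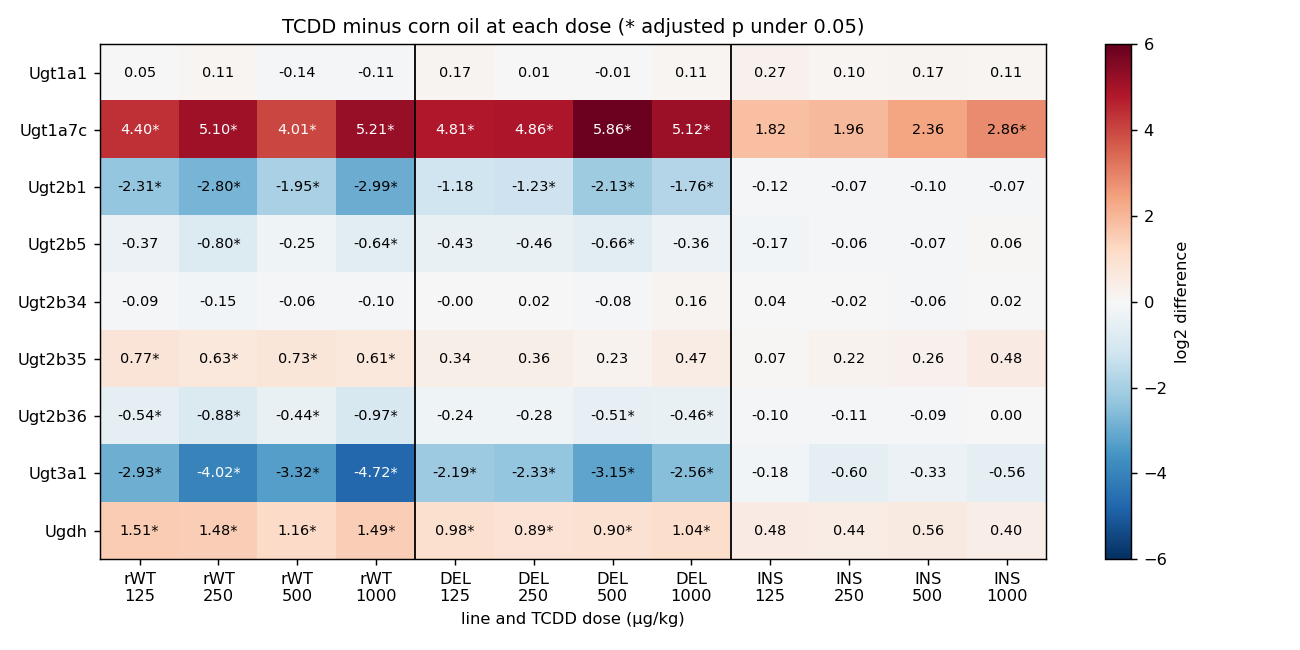
Log2 difference from corn oil of each gene (rows) at each TCDD dose in µg/kg (columns, by line), with red for higher and blue for lower. Stars mark an adjusted p under 0.05; the lowest dose already shows 4.40 for Ugt1a7c in rWT and 4.81 in DEL.

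Ugt1a7c, Ugdh and Ugt3a1 were called at the lowest dose in rWT and DEL, whereas in INS none of the 9 genes was called at that dose. In DEL only these 3 genes were called at 125 µg/kg (Ugt2b1 -1.18, adjusted p = 0.0566, limma). In rWT the log2 difference of Ugt1a7c was 4.40 ± 0.67 (± SE) at 125 µg/kg and 5.21 ± 0.77 at 1000, that of Ugdh was 1.51 and 1.49, and that of Ugt3a1 was -2.93 and -4.72. In DEL Ugt1a7c gave 4.81 and 5.12, Ugdh 0.98 and 1.04, and Ugt3a1 -2.19 and -2.56. No slope on dose among the treated groups was called for any of the 9 genes by limma (features called: 6 in rWT, 0 in DEL and 9 in INS, or 0.0284%, 0% and 0.0426%). Before adjustment 1 gene passed 0.05 in rWT, 0 in DEL and 1 in INS. These were Ugt3a1 in rWT (-0.47 ± 0.22 per doubling of dose, unadjusted p = 0.0362 in the limma fit over all features) and Ugt2b35 in INS (0.13 ± 0.06, unadjusted p = 0.0446). Leaving out the 4 arrays, the slope of Ugt3a1 in rWT was -0.55 ± 0.18 (adjusted p = 0.484 in the limma fit), and still none of the 9 was called. The 95% intervals of the slope of Ugt1a7c per doubling of dose were -0.39 to 0.66 (rWT), -0.22 to 0.61 (DEL) and -0.04 to 0.74 (INS).

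Between lines, 5 of the 9 genes were called in INS minus rWT, where 20.9% of all features were called, and 4 of the 9 in INS minus DEL, where 14.1% were. Ugt2b5, not called in INS minus rWT (0.46, adjusted p = 0.0997, limma), was called there without the 4 arrays (0.65, adjusted p = 0.0291), with centred arrays (0.66, adjusted p = 0.0271) and with array weights (0.59, adjusted p = 0.00770). In INS minus DEL, centring called Ugt2b5 (0.65) and Ugt2b36 (0.53), and array weights called Ugt2b5 (0.45). None was called in DEL minus rWT (1.11% of features), where Ugdh (-0.46 ± 0.16, unadjusted p = 0.00723) and Ugt3a1 (1.19 ± 0.57, unadjusted p = 0.0405) were the 2 genes with an unadjusted p under 0.05 in the limma fit. These comparisons share the arrays of each line. A missed threshold does not show that DEL and rWT responded alike: the interval for Ugt3a1 ran from 0.05 to 2.33, and for Ugt2b1 from -0.04 to 1.92.

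In corn oil mice Ugt1a7c was lower in DEL than in rWT (-1.51 ± 0.58, adjusted p = 0.0377, limma) and lower in INS than in rWT (-1.66 ± 0.58, adjusted p = 0.0195). In INS minus DEL it gave -0.16. With all arrays Ugdh was higher in DEL than in rWT by 0.63 ± 0.14, and so were Ugt2b35 (0.57) and Ugt2b5 (0.46). None of these 5 calls against rWT held without the 4 arrays, 3 of which are rWT corn oil arrays: Ugt1a7c gave -0.47 (DEL) and -0.63 (INS), Ugdh 0.39 (adjusted p = 0.0789, limma), Ugt2b35 0.27 and Ugt2b5 0.33. In INS minus DEL, Ugdh (-0.32), Ugt2b35 (-0.62), Ugt2b5 (-0.46) and Ugt2b34 (-0.36) were called lower. Over all features the median difference was 0.24 in DEL minus rWT, -0.29 in INS minus rWT and -0.54 in INS minus DEL, with 36.0%, 41.8% and 75.5% of features called. After quantile normalization across all arrays 1 of the 9 genes was called in DEL minus rWT and none in INS minus DEL. In INS minus rWT Ugt1a7c then lost its call (-1.20, adjusted p = 0.178, limma) and Ugdh was called higher (0.46, adjusted p = 0.0230). With each array centred on its median, Ugt1a7c lost that call too (adjusted p = 0.108) and Ugdh was called higher (0.77, adjusted p = 0.000266). Centring also called Ugt2b36 higher in INS minus DEL (0.60, adjusted p = 0.0311), in place of the genes named above.

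Ordered by its mean level, Ugt1a7c was lowest in corn oil in every line. The group means were 7.41 ± 1.09 (SD, n = 5) in rWT corn oil and 11.8, 12.5, 11.4 and 12.6 at the rising doses. They were 5.90 ± 1.03 (n = 5) in DEL corn oil and 10.7, 10.8, 11.8 and 11.02 at the doses, and 5.75 ± 0.52 (n = 5) in INS corn oil and 7.57, 7.71, 8.10 and 8.60 at the doses. The ranges of neighbouring TCDD groups overlapped within DEL and within INS. With all arrays the treated INS groups thus lay nearer to rWT corn oil than to any treated rWT or DEL group, although levels set across lines carry the offset between the lines. The rWT corn oil mean includes the 3 arrays against their label, the highest of the 5. The remaining rWT corn oil arrays were at 6.67 and 6.08. Set against the mean of those, INS at 1000 µg/kg (8.60) was no longer nearer to rWT corn oil than to DEL at 125 (10.7).

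The level of Ugt1a7c was set against that of each other gene across the treated arrays of rWT (11 arrays without the 1 against its label) and of INS (17 arrays). The p-values were adjusted over 32 relations, which include those within 2 sets of DEL arrays that are not reported because the sets were formed on Ugt1a7c itself. Of the relations in rWT and INS, 2 passed an adjusted p of 0.05 in permutation tests of Pearson's r, both in rWT, and none passed by Spearman's rho. With Ugt2b36 Pearson's r was -0.78 (adjusted permutation p = 0.0368, Spearman's rho -0.76 with an adjusted permutation p of 0.259, 100000 resamples, n = 11), -0.70 without the 2 arrays farthest from the median of Ugt1a7c, -0.63 within dose groups and -0.90 with the array against its label. With Ugt2b1 r was -0.83 (adjusted permutation p = 0.0413, rho -0.55 with an adjusted permutation p of 0.350), -0.79 within dose groups and -0.94 with the array against its label. It was -0.29 without the 2 farthest arrays, so its size rests on those arrays. In INS the relation with Ugt3a1 had r of -0.60 (rho -0.58 with a permutation p of 0.0162, n = 17), -0.71 without the 2 farthest and -0.62 within dose groups, and did not pass the adjustment (permutation p = 0.0114, adjusted p = 0.122).

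No correlation is given for the treated DEL arrays, which were divided into 2 sets. The division was made, after seeing the data, at the widest gap of Ugt1a7c (0.617), so the ranges of Ugt1a7c cannot overlap. The values on each side are a description, and whether the sets are separate clusters was not tested. How many of all features also had ranges without overlap between the sets was not counted. In 9 arrays Ugt1a7c lay between 9.62 and 10.86 and Ugt2b1 between 11.40 and 12.08. In the other 7 Ugt1a7c lay between 11.47 and 12.68 and Ugt2b1 between 9.11 and 10.41. The ranges of Ugt3a1 in the same sets did not overlap either (9.0 to 9.84 and 6.76 to 8.71). The gap between them was narrower than the gap from 6.76 to 7.48 within the second set. Ugdh covered nearly the same range in both sets (12.19 to 12.61 and 12.38 to 12.70). Both sets held arrays of every dose, 3, 3, 1 and 2 arrays in the first and 1, 1, 3 and 2 in the second at the rising doses.

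**Figure D4:**
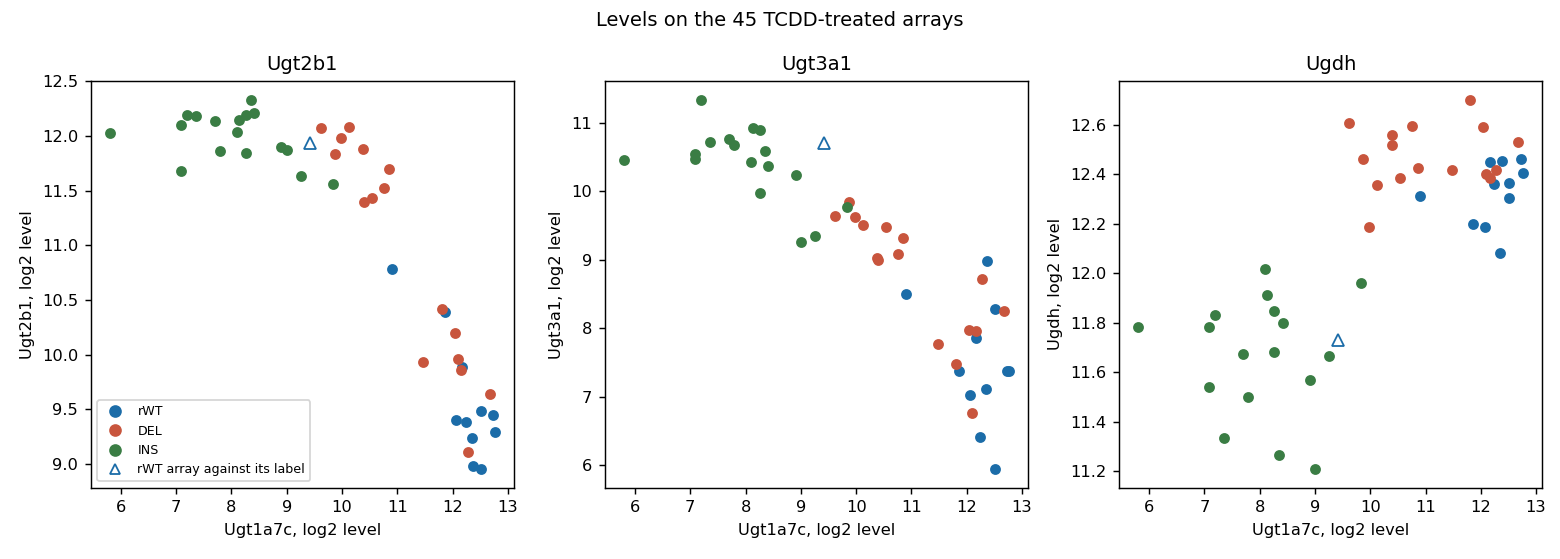
Log2 level of Ugt2b1, Ugt3a1 and Ugdh (vertical axes) against the log2 level of Ugt1a7c (horizontal axes) on the TCDD-treated arrays, coloured by line; the open triangle is the rWT array that goes against its label. The DEL points for Ugt2b1 lie between 9.11 and 10.41 or between 11.4 and 12.08, and whether these are separate clusters was not tested. For Ugdh the ranges of the same 2 sets of arrays overlap. Axes do not start at 0.

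Other genes of the family were split as well. Of 14 further Ugt genes listed, 12 were measured (Ugt1a6a and Ugt1a8 had no row). In rWT 3 were called higher and 7 lower, in DEL 1 higher and 5 lower, and in INS 1 higher and 0 lower. Their median differences were -0.70, -0.43 and -0.07. The rWT counts were 1 higher and 5 lower without the 4 arrays. Over all features 40.7%, 34.3% and 0.568% were called in rWT, DEL and INS, and 36.1% in rWT without the 4 arrays. Ugt1a9, which like Ugt1a7c belongs to the phenol-conjugating group, was the gene called in all 3 lines: it rose by 1.37 ± 0.20 in rWT (adjusted p = 1.22e-07, limma), 2.29 ± 0.19 in DEL (1.30e-13) and 2.13 ± 0.19 in INS (6.37e-12). Its rise in INS differed from that in DEL by -0.15 (95% interval -0.69 to 0.38), where Ugt1a7c gave -2.91; the difference between the genes was not tested. In rWT its rise was 2.11 without the 4 arrays.

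Ugt2a3 fell by 2.75 in rWT and 1.60 in DEL, Ugt2b37 by 2.43 and 0.83, Ugt2b38 by 1.02 and 1.49, Ugt3a2 by 2.03 and 1.19, and Ugt1a5 by 0.77 and 0.84, and none of these 5 was called in INS. Ugt2a3, a Ugt2 gene beside the Ugt2b genes, was also among the 3 genes most like Ugt2b1. Without the 4 arrays Ugt2b37 fell by 1.12 in rWT, and Ugt1a5 lost its call there (-0.69, adjusted p = 0.0709). Ugt2b34, Ugt2b1, Ugt2b35, Ugt2b36, Ugt2b5, Ugt2b37, Ugt2a3 and Ugt2b38 follow each other in this order on chromosome 5 in the RefSeq annotation, so the gene that rose in rWT (Ugt2b35) lies between Ugt2b1 and Ugt2b36, which fell.

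Genes that supply and use UDP-glucuronic acid moved in both directions. Of 15 measured genes, 6 were called higher and 4 lower in rWT, 6 higher and 2 lower in DEL, and 1 higher and 0 lower in INS, with medians of 0.07, 0.10 and 0.06. Over all features 40.7%, 34.3% and 0.568% were called. Leaving out the 4 arrays, 6 were higher and 3 lower in rWT, where 36.1% of all features were called. Slc35d1, the carrier that brings UDP-glucuronic acid into the endoplasmic reticulum, rose in all 3 lines, by 1.39 in rWT, 0.85 in DEL and 0.61 in INS (adjusted p = 0.00798, limma). A phosphoglucomutase gene, listed as Pgm2, rose by 1.54 in rWT and 1.5 in DEL, and Uxs1, which turns UDP-glucuronic acid into UDP-xylose, by 0.94 and 0.76. Gusb, the beta-glucuronidase that removes glucuronic acid, rose by 1.26 and 0.87, Akr1a1, which reduces glucuronate towards ascorbate, by 0.48 and 0.42, and the inositol oxygenase gene Miox by 0.55 and 0.44.

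In both rWT and DEL 2 genes of the list fell. Rgn, the gluconolactonase of ascorbate synthesis, fell by 4.08 and 2.29, and Gys2, the liver glycogen synthase that draws on UDP-glucose, fell by 3.07 and 1.97. In INS the differences were -0.33 for Rgn and -0.22 for Gys2, not called. Ugp2, which makes UDP-glucose, was not called in any line (-0.34, -0.30 and -0.30). Pgm2, Uxs1, Rgn and Gys2 differed between INS and rWT and between INS and DEL. The difference in Slc35d1 was called in INS minus rWT (-0.78).

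**Figure D5:**
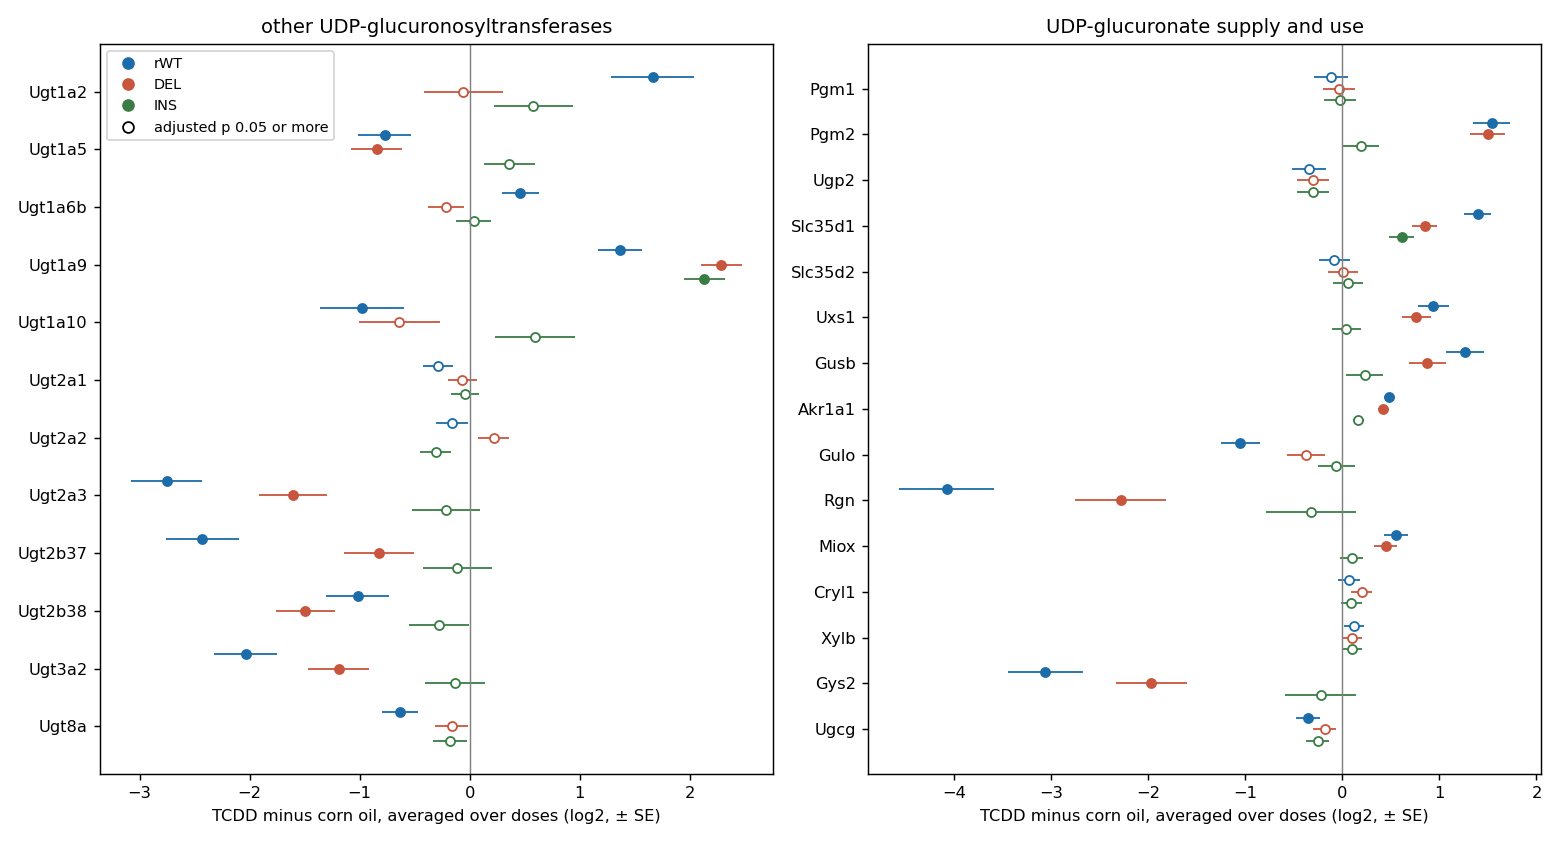
Log2 difference of TCDD from corn oil averaged over the doses (horizontal axes; bars are ± SE of the limma fit) for the 12 other Ugt genes measured (left) and the 15 genes that supply or use UDP-glucuronic acid (right), in rWT, DEL and INS. Filled points passed the adjusted p of 0.05; Ugt1a9 and Slc35d1 are filled in all 3 lines.

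Steps before and after conjugation were measured too. Of 13 genes of bilirubin formation and of transport, 5 were called higher and 5 lower in rWT (5 and 5 also without the 4 arrays), 6 and 5 in DEL, and none in INS. For this list and the sulphation enzymes below, the share of all features called was 40.7% in rWT, 34.3% in DEL and 0.568% in INS. In rWT without the 4 arrays the share was 36.1%. The uptake carriers for organic anions Slco1a1 (-4.17 in rWT and -4.91 in DEL), Slco1b2 (-2.61 and -1.64) and Slco2b1 (-2.58 and -2.24) fell, and Abcc4, an export pump of the blood side, rose (2.30 and 2.37). In the sulphation enzymes, a conjugation route for many of the same compounds, 1 of 14 was called higher and 8 lower in rWT, 1 and 5 in DEL, and none in INS. Leaving out the 4 arrays, the rWT counts were 2 higher and 5 lower, and the median of the list went from -1.74 to -0.07. Sult2a8 fell by 6.27 and 4.45 and Sult1c2 by 3.06 and 2.53, and the oestrogen sulphotransferase gene Sult1e1 rose by 2.96 and 1.35. Sult3a1 fell in rWT (-3.78) with all arrays but gave -0.14 without the 4 arrays against their label.

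Among 11 measured transcription factors that act on Ugt genes, 1 was called higher in each line, Nfe2l2, which rose by 1.66 in rWT, 1.5 in DEL and 0.82 in INS. Its rise was smaller in INS than in rWT by 0.84 (adjusted p = 0.000531, limma) and than in DEL by 0.68 (adjusted p = 0.00577). In rWT 5 were called lower, but 1 without the 4 arrays, in DEL 4 and in INS 0. Beside these counts, 40.7% of all features were called in rWT (36.1% without the 4 arrays), 34.3% in DEL and 0.568% in INS. Stat5b fell by 0.70 in rWT and 0.52 in DEL, and Ppara by 0.82 and 0.59, the latter not called in rWT without the 4 arrays (-0.57, adjusted p = 0.112). Nr1i3, the receptor CAR, fell by 0.89 in rWT and was at 0.69 in DEL (not called), and its rWT call was lost without the 4 arrays (-0.56, adjusted p = 0.343). Ahr itself was not called in any line (0.24, 0.11 and 0.05). This feature is that of the mouse gene, and whether it reads the transgene was not tested.

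Likeness was measured as the root mean square difference over the 12 dose effects, on the log2 scale. Nearest to Ugdh were Mapre3 (0.14), Slc35d1 (0.15) and Arhgef16 (0.15). Nearest to Ugt2b1 were Bdh2 (0.13), Ugt2a3 (0.17) and Tmem25 (0.17), and nearest to Ugt3a1 were Apol7a (0.22), Mme (0.26) and Ces1e (0.26). No gene was as close to Ugt1a7c, whose nearest were Psat1 (0.53), Mmp12 (0.64) and Cbr3 (0.73). Nearest to Ugt2b36 were Apoa2 (0.07), Zfp563 (0.09) and Fbxo9 (0.09), and nearest to Ugt2b5 were Capn10, Neil1 and Hdac10 (0.08 to 0.10).

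Markers of other cells moved with TCDD in rWT and DEL, the lines in which Ugt3a1 and Ugt2b1 fell. The share of all features called was 40.7% in rWT, 34.3% in DEL and 0.568% in INS. Of 8 Kupffer cell and macrophage markers, 6 were called higher and 1 lower in rWT, 8 higher in DEL and none in INS, and their summed level ran from 12.49 to 13.32 in corn oil and 13.33 to 14.22 under TCDD in rWT, 12.09 to 12.80 and 13.00 to 14.29 in DEL, and 12.24 to 12.70 and 12.01 to 13.11 in INS (log2 of the sum). Of 7 neutrophil markers 6 were higher in rWT, 6 higher and 1 lower in DEL and none in INS, with summed levels of 7.07 to 7.97 and 8.21 to 12.62 in rWT, 7.61 to 8.15 and 8.99 to 11.61 in DEL, and 6.77 to 7.39 and 6.60 to 7.86 in INS. Of 10 hepatocyte markers 1 was called higher and 4 lower in rWT, 0 and 6 in DEL and none in INS. Their summed level ran from 16.205 to 16.36 in corn oil and 15.89 to 16.28 under TCDD in rWT. It ran from 16.25 to 16.38 and 15.91 to 16.21 in DEL, without overlap, and from 16.17 to 16.32 and 16.10 to 16.26 in INS. Of 6 stellate cell markers 3 were higher and 1 lower in rWT, 4 higher in DEL and none in INS. Of 6 measured cholangiocyte markers 1 was higher in rWT and in DEL and none in INS, with summed levels of 7.84 to 11.27 over all arrays. Of 4 measured pancreas markers 3 were called lower in rWT (Try5 -1.16, Cpb1 -1.17 and Prss2 -0.77) and none in DEL or INS. Their summed level in rWT ran from 6.5 to 10.63 in corn oil and from 6.47 to 7.25 under TCDD, with Try5 at up to 9.09 in corn oil and at most 4.58 under TCDD. The part of these cells in the results was not tested.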

How the data were processed

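The authors deposited log2 expression values made by RMA (R 3.1.2 with affy 1.44.0, per the submitters' processing notes) from Affymetrix arrays of mouse liver, 60 arrays in all; the background step, probe-set definition and build were not stated there. Features were named through the platform annotation. No value was altered. One linear model of 15 line-by-dose groups was fitted to all 21115 features with limma 3.58.1 (R 4.3.3; lmFit, contrasts.fit, eBayes), and p-values were adjusted by Benjamini-Hochberg over all features. TCDD averaged over doses, each dose, the slope per doubling of dose, and differences between lines were contrasts of this model, whose spread is shared by all groups. The number of arrays per group limits the precision. The step was tested on simulated data made for the averaged effect in DEL over 21115 features: 98 of 100 log2 changes of 1 and 100 of 100 of 2 were recovered, with 9 false calls. The simulated noise was independent between features and arrays, and far fewer features were changed than were called in the data. These counts check the calculation and do not give the error rates in these data. Permutations were drawn with numpy 2.4.6, and scipy 1.17.1 gave the ranks and the adjustment of the p-values.

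The genes and all lists were chosen with earlier results of these data known. Other Ugt genes and genes of UDP-glucuronic acid supply and use were named when called in at least 2 lines, up to 4 called genes with the largest effects from each other list, and the 3 genes most alike for each of the 9 called in at least 2 lines. Ugp2 and Ahr were added after their values were seen. Replicate numbers were not taken to pair the arrays. Alternatives were other scalings, array weights, a filter, a block on replicate number, leaving out arrays, and the Xist pattern as a covariate. The division of the DEL arrays, and relations without the array against its label, were chosen after seeing the data.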

Additional observations from a re-analysis of the deposited data

Results flagged for a closer look

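Of 108 sets of a gene and a group of 4 or 5 arrays, 5 (4.63%) had an extreme array past Dixon's 95% limit, and chance gives about 1 in 20. Replicate 4 of rWT at 500 µg/kg, which goes against its label, was lowest for Ugt1a7c (9.42, others 11.86 to 12.35) and highest for Ugt3a1 (10.71, others 7.03 to 7.38). Replicate 5 of rWT corn oil, also against its label, was lowest for Ugt2b35 (9.07, others 9.90 to 10.24). Ugt1a7c was high on replicate 2 of INS at 125 µg/kg (8.90, others 7.09 to 7.19), and Ugt2b1 was high on replicate 3 of DEL at 500 µg/kg (12.08, others 9.64 to 9.96).

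The averaged TCDD effect differed between lines by limma's test of the difference for 5 genes in INS minus rWT: Ugt1a7c (-2.43), Ugt2b1 (2.42), Ugt2b36 (0.64), Ugt3a1 (3.33) and Ugdh (-0.94). In INS minus DEL it differed for Ugt1a7c (-2.91), Ugt2b1 (1.48), Ugt3a1 (2.14) and Ugdh (-0.48). These differences come with the markers of macrophages and neutrophils, which were called in rWT and DEL and not in INS; their part in the result was not tested.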

How the results depend on the processing

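None of the 24 called averaged effects and differences between lines in the averaged effect reversed under the alternatives. The corn oil differences are not among these 24. With each array centred on its median, Ugdh (0.29), Ugt2b5 (0.15) and Ugt2b34 (0.24), called lower in INS minus DEL in corn oil, changed sign. Centring each array on its median moved the median of all features (rWT from -0.07 to -0.29, DEL from -0.05 to -0.31), and the features called became 13735 in rWT (2782 higher and 10953 lower) and 13835 in DEL (2186 and 11649). It left 1 of the 9 genes called in INS, gave 2 (DEL minus rWT) and 1 (INS minus DEL) called in corn oil and 6423 features in INS minus DEL, and reversed Ugt1a1 (-0.19) and Ugt2b34 (-0.23) in DEL and Ugt2b34 (0.20) and Ugt2b35 (0.15) in INS minus DEL. Quantile normalization reversed Ugt1a1 in rWT (0.020) and Ugt2b34 in INS (0.025) and left 1 (DEL minus rWT) and 0 (INS minus DEL) genes called in corn oil. Without the 4 arrays against their label, 3 pairs of gene and dose and 192 features were called in INS, and 0 genes in corn oil in DEL minus rWT and 0 in INS minus rWT; Ugt1a1 (0.29) and Ugt2b34 (0.092) in rWT, Ugt1a1 (-0.22), Ugt1a7c (-0.72) and Ugt2b34 (-0.068) in DEL minus rWT, and Ugt1a1 (-0.13) and Ugt2b34 (-0.096) in INS minus rWT reversed. With the Xist covariate 1 (DEL minus rWT) and 0 (INS minus rWT) genes were called in corn oil, with 27 and 2505 features called for the difference in effect; Ugt1a1 (0.31) and Ugt2b34 (0.099) in rWT, Ugt1a1 (-0.24), Ugt2b5 (-0.085) and Ugt2b34 (-0.074) in DEL minus rWT, and Ugt1a1 (-0.15) and Ugt2b34 (-0.10) in INS minus rWT reversed. INS fitted on its own had 1 gene called, and DEL minus rWT fitted on those lines had 106 features. Array weights gave 3 pairs and 328 features in INS and 1000 features in DEL minus rWT, with Ugt2b34 in INS at 0.026; the filter at the median level gave 130 features in DEL minus rWT. With a replicate block, 2 pairs were called in INS, 0, 0 and 1 genes in corn oil (DEL minus rWT, INS minus rWT, INS minus DEL) and 82 features in DEL minus rWT, and Ugt1a1 in rWT was at 0.097. Same-numbered arrays correlated from -0.59 to 0.495, over 0.1 in 15 of 27 pairs in rWT, 10 of 40 in DEL and 21 of 41 in INS. In the same order of lines, 10 of 17, 5 of 21 and 6 of 22 arrays correlated best with their own number. In rWT this is a hint of pairing, but the arrays were not taken as paired. The cause of these changes was not tested.

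Leaving out 1 array at a time, the genes called numbered 7 to 7 (rWT), 6 to 7 (DEL) and 1 to 2 (INS), with 23 to 27, 16 to 20 and 1 to 2 pairs of gene and dose. The line differences gave 0 to 0 in DEL minus rWT, 5 to 6 in INS minus rWT and 3 to 4 in INS minus DEL. In corn oil it gave 1 to 4, 0 to 2 and 3 to 4. Features called ran from 77 to 165 in INS (lowest without corn oil replicate 3, with 78 without replicate 5) and from 147 to 585 in DEL minus rWT (147 without rWT corn oil replicate 3, 155 without DEL corn oil replicate 5, 394 without rWT corn oil replicate 1 and 585 without rWT replicate 4 at 500 µg/kg). Small estimates crossed 0: Ugt1a1 in rWT (-0.12 to 0.076) and DEL (-0.015 to 0.12), Ugt2b34 in DEL (-0.027 to 0.063) and INS (-0.053 to 0.047), Ugt2b5 in INS (-0.11 to 0.015), Ugt1a1 (-0.0084 to 0.19) and Ugt2b5 (-0.10 to 0.15) in DEL minus rWT, and Ugt1a1 (-0.013 to 0.19), Ugt2b34 (-0.078 to 0.024) and Ugt2b35 (-0.16 to 0.026) in INS minus DEL. Groups of 2 to 5 arrays limit the differences that could be detected.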
